A study of Homo sapiens with 6 samples.

Results

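The 7 genes described here encode the angiopoietins ANGPT1 and ANGPT2, their receptor TEK (also called TIE2), the related receptor TIE1, the receptor phosphatase PTPRB (also called VE-PTP), and the angiopoietin-like proteins ANGPTL2 and ANGPTL4. They were taken by symbol, and all 7 were found, each as 1 row, among the 45372 genes of every deposited table. The cells were HUVECs, primary endothelial cells of the human umbilical vein labelled as wild type, kept in endothelial growth medium and transfected with a lipid reagent. The mimic group (3 libraries) received a miR-409-3p mimic at 50 nM, and the control group (3 libraries) received a non-specific control RNA. Both groups were harvested at 48 h. All 6 titles add the words "Non Treated" without naming a treatment. RNA of several technical replicates was pooled for each sample, and the labels number the libraries of each group 1 to 3 as biological replicates without naming separate donors, so p-values measure only the spread between these samples. The series title ties miR-409-3p to angiogenesis, and the question here is whether the vessel-stabilising TIE system and its angiopoietin-like relatives differed when the microRNA was supplied.

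ANGPT1, made mainly by pericytes and smooth muscle cells, binds TEK on endothelium, and the activated receptor signals through PI3-kinase and AKT to keep vessels quiescent. ANGPT2 is made by the endothelial cells themselves, stored in Weibel-Palade bodies and released on stimulation, and it weakens or mimics ANGPT1 depending on context. TIE1 binds no angiopoietin strongly and acts as a partner that modulates TEK, while PTPRB removes phosphate from TEK. AKT keeps the transcription factor FOXO1 out of the nucleus, and ANGPT2 is itself a FOXO1 target. The angiopoietin-like proteins share the fold of the angiopoietins but do not bind the TIE receptors. ANGPTL4 inhibits lipoprotein lipase and is induced by PPAR receptors, glucocorticoids and hypoxia, and ANGPTL2 is a secreted factor linked to adipose and vascular inflammation.

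A microRNA lowers transcripts by pairing its seed, bases 2 to 8 counted from its 5′ end, with their 3′ untranslated regions. The mature miR-409-3p (22 bases, GRCh38.p14, chr14:101065346-101065367, plus strand, from RefSeq) is printed with the seed in capitals, together with the best seed match in the longest annotated 3′ UTR of PTPRB and of TEK, the 2 genes of the receptor complex that have one, where capitals mark the bases that match the seed and, in TEK, also the A that follows it.
miR-409-3p: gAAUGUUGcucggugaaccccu
PTPRB site: aaggcttaatgcCAACATTttcatagaaa
TEK site: catcaagatttcCAACATTAcacactcctc
The PTPRB match (GRCh38, chr12:70520474-70520480, minus strand) is a 7-base match to CAACATT in the 5623-nt 3′ UTR of the transcript that GENCODE tags as principal. It is exonic in 1 of the gene's 8 coding transcripts, and another annotated PTPRB 3′ UTR held an 8-base match. The TEK match (GRCh38, chr9:27202854-27202861, plus strand) is an 8-base match to CAACATTA at position 445 of the longest annotated TEK 3′ UTR (2817 nt). The same bases lie in the coding sequence of 4 of 5 coding transcripts, the principal one included, and the principal TEK 3′ UTR of 943 nt held no 6-base match (AACATT). The principal ANGPT1 3′ UTR held an 8-base match and a separate 7-base CAACATT match, and that of ANGPT2 held a 7-base match to AACATTA. TIE1, ANGPTL2 and ANGPTL4 held none of these matches in any annotated 3′ UTR. In principal transcripts, 3 of the 7 genes thus held a match of 7 or 8 bases, against 20.7% of 11745 tested protein-coding genes. In the longest annotated 3′ UTRs 4 of 7 did, against 22.8% of 11855. These shares were not adjusted for length. The principal 3′ UTRs with such a match ran from 2373 nt (ANGPT1) to 5623 nt (PTPRB), and those without from 386 nt (TIE1) to 1607 nt (ANGPTL2). A match in sequence is a description of these letters only, searched on the transcript strand.

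Expression was measured as TPM, read counts per gene length brought to a common total per library, so levels of different genes can be set side by side. Steps in the low values gave an estimated 29.8 to 35.8 M assigned reads per library, and mitochondrial transcripts took 8.65% to 9.99% of TPM. All 10 endothelial markers passed the filter, with a summed level of 6207 to 6439 TPM in mimic libraries and 5968 to 6244 TPM in control libraries. The 10 markers of mural cells (pericytes and smooth muscle) summed to 511 to 551 TPM in mimic and 502 to 526 TPM in control libraries. RGS5 made up nearly all of that sum, at 514 TPM in mimic and 501 TPM in control cells on average, while PDGFRB averaged 0.196 TPM in mimic and 0.228 TPM in control cells and KCNJ8 was listed at 0. Leukocyte markers summed to at most 0.767 TPM, with PTPRC, ITGAM and CD3E listed at 0. The 6 fibroblast markers summed to 13.0 to 16.4 TPM in mimic and 12.9 to 16.1 TPM in control libraries, and the 6 adipocyte and hepatocyte markers to at most 0.140 TPM in mimic and 0.247 TPM in control libraries. The lymphatic marker sum lay higher in every mimic library, at 57.0 to 57.2 TPM against 51.4 to 54.4 TPM in control libraries, mostly through FLT4 and LYVE1, with PDPN listed at 0. The sum of 4 platelet markers was 0.292 to 0.579 TPM in mimic and 0.0663 to 0.125 TPM in control libraries. PF4 alone made that difference, at 0.203 to 0.559 TPM in mimic libraries and listed at 0 in control libraries. ITGA2B averaged 0.0760 TPM in mimic and 0.0927 TPM in control cells, PPBP and GP9 were listed at 0, and 0 of the 4 passed the filter on low values. The part of the lymphatic and platelet markers in the results below was not tested.

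Across the 6 libraries the order of levels was the same: TIE1, ANGPT2, TEK, PTPRB, ANGPTL2, ANGPTL4 and then ANGPT1. No neighbours in this order overlapped in TPM within either group. TIE1 was the 505th and ANGPT2 the 811th of 13680 tested genes by mean TPM, and ANGPT1 the 12684th. HUVECs thus carried much ANGPT2 and receptor RNA and little ANGPT1 RNA. Of the other family genes, ANGPT4, a TEK ligand, and ANGPTL7 were listed at 0 in every library. ANGPTL5 measured 1.14, 1.19 and 1.01 TPM in mimic libraries and 1.17, 1.09 and 1.37 TPM in control libraries. ANGPTL1, ANGPTL6 and ANGPTL8 missed the filter on low values, and the highest of their values was 0.729 TPM, for ANGPTL6 in mimic library 3.

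**Figure D1:**
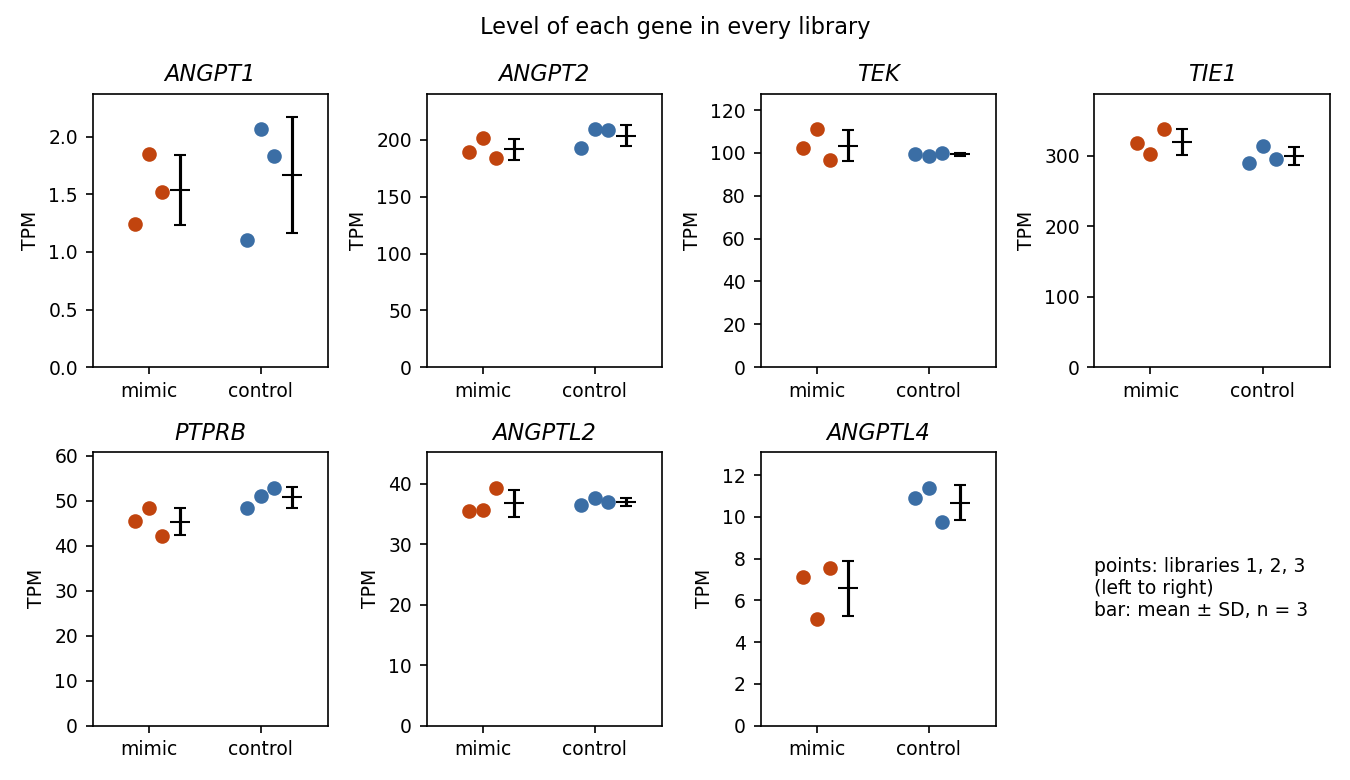
Level of each gene in TPM in the 3 mimic libraries (left) and the 3 control libraries (right), with the group mean ± SD beside the points. Each axis starts at 0. ANGPTL4 lies at 5.09 to 7.54 TPM in mimic and 9.75 to 11.4 TPM in control libraries, and the other genes differ by little beside their levels.

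The comparison of mimic with control cells was fitted over the 13680 genes that reached 1 TPM in 3 or more libraries, by limma on log2(TPM + 1), with p-values adjusted by Benjamini-Hochberg and called under 0.05. Every log2 fold change is the mimic mean less the control mean on that scale, where changes of low genes come out too small. Intervals are 95% limma intervals, given as multiples of the control value of TPM + 1. All 7 genes passed the filter on low values, and 0 of them passed the test, against 0.431% of tested genes called in either direction, 0.132% higher and 0.300% lower. Unadjusted p-values under 0.05 were found for 2 lower genes, PTPRB and ANGPTL4, and 0 higher ones, where 7.64% of tested genes were lower and 3.05% higher by that rule. In these 2 genes every mimic value lay under every control value, as in 10.5% of tested genes. In 0 of the 7 did the mimic values all lie above, as in 5.16% of tested genes. The median fold change of the 7 was -0.06, and that of all tested genes -0.02. In bulk RNA, fewer cells of a type and less RNA per cell cannot be told apart.

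Of the ligands, ANGPT2 measured 189, 201 and 184 TPM in mimic libraries and 193, 209 and 209 TPM in control libraries. The groups overlapped, since mimic library 2 lay above control library 1. The means were 192 ± 8.94 TPM in mimic and 204 ± 9.23 TPM in control cells (SD, n = 3 each), and the log2 fold change was -0.09 (SE 0.06, limma adjusted p = 0.699). Its interval ran from 0.860 to 1.03 times the control value of TPM + 1. ANGPT2 (ENSG00000091879, GRCh38, chr8:6499651-6563409, minus strand) lies inside MCPH1 on the opposite strand, with 78 shared exon bases, and MCPH1 itself stood at 9.79 to 11.5 TPM over all libraries.

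ANGPT1 measured 1.24, 1.85 and 1.52 TPM in mimic libraries and 1.10, 2.07 and 1.83 TPM in control libraries, from an estimated 65 to 120 reads. The mimic values lay within the range of the control values. The spread of 19.7% in mimic and 30.2% in control cells (coefficient of variation) exceeded the 10.5% and 10.03% that counting error alone would give at these reads. The log2 fold change was -0.06 (SE 0.19, limma adjusted p = 0.971), with an interval of 0.716 to 1.29 times the control value of TPM + 1. At so low a level the interval is wider for TPM itself. The fold change turned to 0.03 without mimic library 1 and to 0.05 without control library 2, and was -0.22 without control library 1. ANGPT1 (ENSG00000154188) lies at chr8:107249482-107498055 on the minus strand of GRCh38. The TPM of ANGPT2 over that of ANGPT1 in the same library was 152, 109 and 121 in mimic and 175, 101 and 114 in control libraries, again overlapping.

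TEK, the angiopoietin receptor (ENSG00000120156, chr9:27109141-27230175, plus strand), measured 102, 111 and 96.8 TPM in mimic libraries and 99.3, 98.7 and 99.97 TPM in control libraries. The control values fell within the range of the mimic values. The log2 fold change was 0.06 (SE 0.06, limma adjusted p = 0.873), and its interval ran from 0.945 to 1.14 times the control value of TPM + 1.

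TIE1, its partner receptor (ENSG00000066056, chr1:43300993-43323108, plus strand), measured 319, 302 and 338 TPM in mimic libraries and 289, 314 and 295 TPM in control libraries. Only mimic library 2 lay within the control range. The means were 319 ± 17.8 TPM in mimic and 299 ± 13.0 TPM in control cells (SD, n = 3 each). The log2 fold change was 0.09 (SE 0.06, limma adjusted p = 0.687, interval 0.971 to 1.17 times the control value of TPM + 1). The TPM of TIE1 over that of TEK was 3.11, 2.72 and 3.49 in mimic and 2.91, 3.18 and 2.95 in control libraries.

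PTPRB, the phosphatase that acts on TEK (ENSG00000127329, chr12:70515866-70637440, minus strand), measured 45.5, 48.3 and 42.3 TPM in mimic libraries and 48.3, 51.1 and 52.9 TPM in control libraries. Every mimic value lay below every control value, but the highest mimic and lowest control values were only 0.0093 TPM apart. The means were 45.4 ± 3.03 TPM in mimic and 50.8 ± 2.30 TPM in control cells (SD, n = 3 each), so that mimic cells held 89.4% as much. The log2 fold change was -0.16 (SE 0.07, interval 0.806 to 0.994 times the control value of TPM + 1). Its unadjusted limma p was 0.0407 and its adjusted p 0.430. Set against TEK in the same library, PTPRB stood at 0.444, 0.435 and 0.437 in mimic and 0.487, 0.518 and 0.529 in control libraries. ANGPT2 over TEK stood at 1.85, 1.81 and 1.90 in mimic and 1.94, 2.12 and 2.09 in control libraries. These ratios did not overlap between the groups, while TIE1 over TEK and ANGPT2 over ANGPT1 did. Of single tested genes, 15.7% did not overlap in either direction. Both ratios have TEK as divisor, and the levels of TEK and of ANGPT2 overlapped between the groups. The ratios are given without a test. Of 2 annotated antisense genes that overlap PTPRB, the higher reached 0.954 TPM.

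Of the angiopoietin-like genes, ANGPTL4 differed most. ANGPTL4 (ENSG00000167772, chr19:8363289-8374373, plus strand) measured 7.10, 5.09 and 7.54 TPM in mimic libraries and 10.9, 11.4 and 9.75 TPM in control libraries, from an estimated 112 to 231 reads. The groups did not overlap, and the highest mimic value was 2.21 TPM under the lowest control value. The means were 6.58 ± 1.31 TPM in mimic and 10.7 ± 0.850 TPM in control cells (SD, n = 3 each), so that mimic cells held 61.5% as much. The log2 fold change was -0.64 (SE 0.13, interval 0.522 to 0.792 times the control value of TPM + 1). It was larger in size than that of all but 1.36% of tested genes. Its unadjusted limma p was 0.0011, the 164th smallest, and its adjusted p of 0.0893 missed the threshold. When the fit held protein-coding genes only, the adjusted p was 0.0387, and in the other 16 alternative settings it ranged from 0.0508 to 0.324 while the fold change lay between -0.73 and -0.49. The spread of 19.9% in mimic cells compares with 8.69% from counting error alone, and mimic library 2 was the lowest. The ANGPTL4 exons share 1 base with the antisense gene RAB11B-AS1, which stood at 16.5, 15.4 and 18.7 TPM in mimic and 20.1, 20.6 and 13.7 TPM in control libraries.

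ANGPTL2 (ENSG00000136859, chr9:127087332-127122883, minus strand, inside RALGPS1 with no shared exon bases) measured 35.4, 35.6 and 39.3 TPM in mimic libraries and 36.4, 37.6 and 37.0 TPM in control libraries. The mimic values lay on both sides of the control values. The log2 fold change was -0.01 (SE 0.06, limma adjusted p = 0.986), and its interval ran from 0.902 to 1.09 times the control value of TPM + 1.

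**Figure D2:**
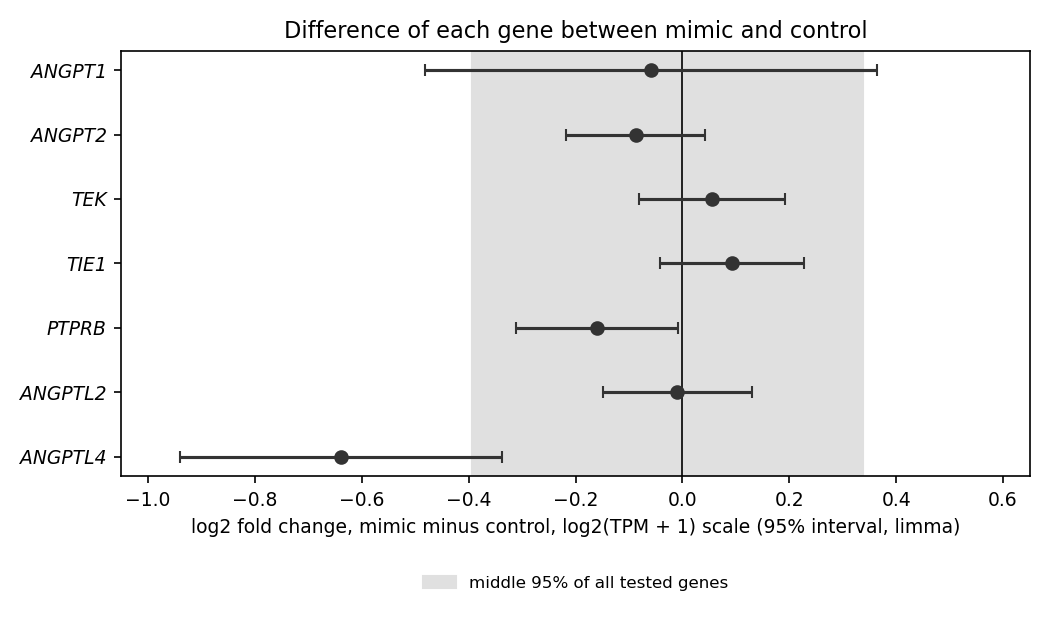
Log2 fold change of each gene on the log2(TPM + 1) scale, mimic minus control, with its 95% limma interval. The grey band holds the middle 95% of all tested genes, -0.39 to 0.34. ANGPTL4, at -0.64, is the only one of the 7 outside the band, and ANGPT1 has the widest interval.

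ANGPTL4 and PTPRB kept their sign in all 17 alternative settings. PTPRB ranged from -0.21 to -0.11, had an unadjusted p under 0.05 in 11 of 17 settings and an adjusted p of at least 0.256.

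**Figure D3:**
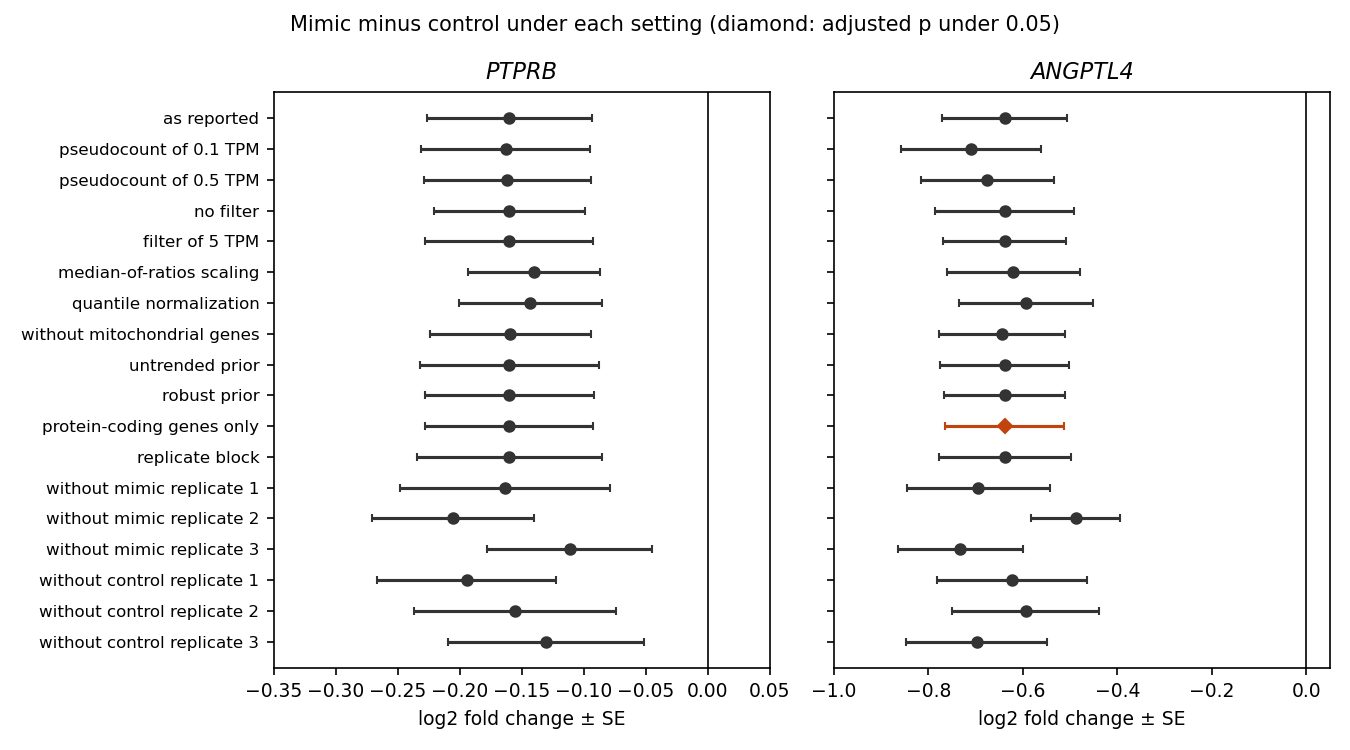
Log2 fold change ± SE of PTPRB and ANGPTL4, mimic minus control, as reported and under each alternative setting. All values lie below 0. The diamond marks an adjusted p under 0.05, reached by ANGPTL4 with protein-coding genes only.

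Downstream of TEK, 0 of 27 tested adaptor and effector genes passed the test. An unadjusted p under 0.05 was found for 0 higher and 2 lower genes, against 3.05% and 7.64% of all tested genes. The median log2 fold change was -0.0042, and that of all tested genes -0.02. PIK3R2, a regulatory subunit of PI3-kinase, averaged 9.53 ± 1.09 TPM in mimic and 11.9 ± 0.485 TPM in control cells. PDPK1, which activates AKT, averaged 18.4 ± 0.752 TPM in mimic and 20.7 ± 1.25 TPM in control cells (SD, n = 3 each). Both share exon bases with other annotated genes, so their values are uncertain. Named after their values were seen, the kinase AKT1 differed by 0.02 (log2, SE 0.08) and NOS3, the endothelial nitric oxide synthase, by 0.02 (SE 0.06). Among 16 tested co-receptors, sheddases and PTPRB substrates, 0 passed and 0 had an unadjusted p under 0.05, with fold changes from -0.06 to 0.14 and a median of 0.06.

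The FOXO list, FOXO factors with FOXO1 targets of endothelium, was, like the other lists, written with earlier results of these data known. By limma, 2 of its 20 tested genes rose and 0 fell, where 0.132% of all tested genes rose and 0.300% fell. Unadjusted p was under 0.05 for 7 higher genes and 1 lower gene, against 3.05% and 7.64% of all tested genes. The median was 0.08, and that of all tested genes -0.02. FOXO activity was not tested. TXNIP, an inhibitor of thioredoxin, rose by 0.97 (log2, SE 0.12, adjusted p = 0.0143). GADD45A, a stress gene, rose by 0.50 (SE 0.05, adjusted p = 0.0062). FOXO1 itself, named after its values were seen, measured 70.7, 73.9 and 70.1 TPM in mimic and 53.7, 54.7 and 59.5 TPM in control libraries. Its exons share 269 bases with LINC00598 on the same strand, which stayed at or under 0.162 TPM. The FOXO1 groups did not overlap, and the log2 fold change was 0.35 (SE 0.06), with a limma adjusted p of 0.0525 that passed in 6 of 17 alternative settings. The GADD45A call was lost without mimic library 1 (adjusted p = 0.0504). The TXNIP call was lost without mimic library 1 (0.0607), control library 1 (0.0818) or control library 2 (0.0504), and with no filter (0.147) or an untrended prior (0.055).

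Of 19 transcription factors reported to act on the ANGPT2, TEK or TIE1 genes, KLF2 rose and GATA3 fell. By the same limma threshold 0.132% of all tested genes rose and 0.300% fell. Unadjusted p was under 0.05 for 3 higher and 4 lower genes, against 3.05% and 7.64% of all tested genes, and the median was 0.06. This list too was written with earlier results of these data known. GATA3, a zinc finger factor of large-vessel endothelium, measured 48.1, 45.6 and 42.9 TPM in mimic libraries and 58.6, 62.6 and 63.2 TPM in control libraries. The groups did not overlap. The log2 fold change was -0.43 (SE 0.06, limma adjusted p = 0.0321). GATA3 kept its sign in all 17 alternative settings and passed in 8. The call was lost when any 1 library was left out, with adjusted p from 0.0539 to 0.158, and with no filter (0.147) or an untrended prior (0.0885). KLF2, a flow-responsive factor, averaged 51.5 ± 8.48 TPM in mimic and 23.9 ± 1.35 TPM in control cells (SD, n = 3 each) and rose by 1.07 (log2, SE 0.11, limma adjusted p = 0.0062). Its call was lost without control library 1 (0.0535) and with no filter (0.0907). GATA2, the related factor and named after its values were seen, had -0.31 (SE 0.07, adjusted p = 0.107).

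**Figure D4:**
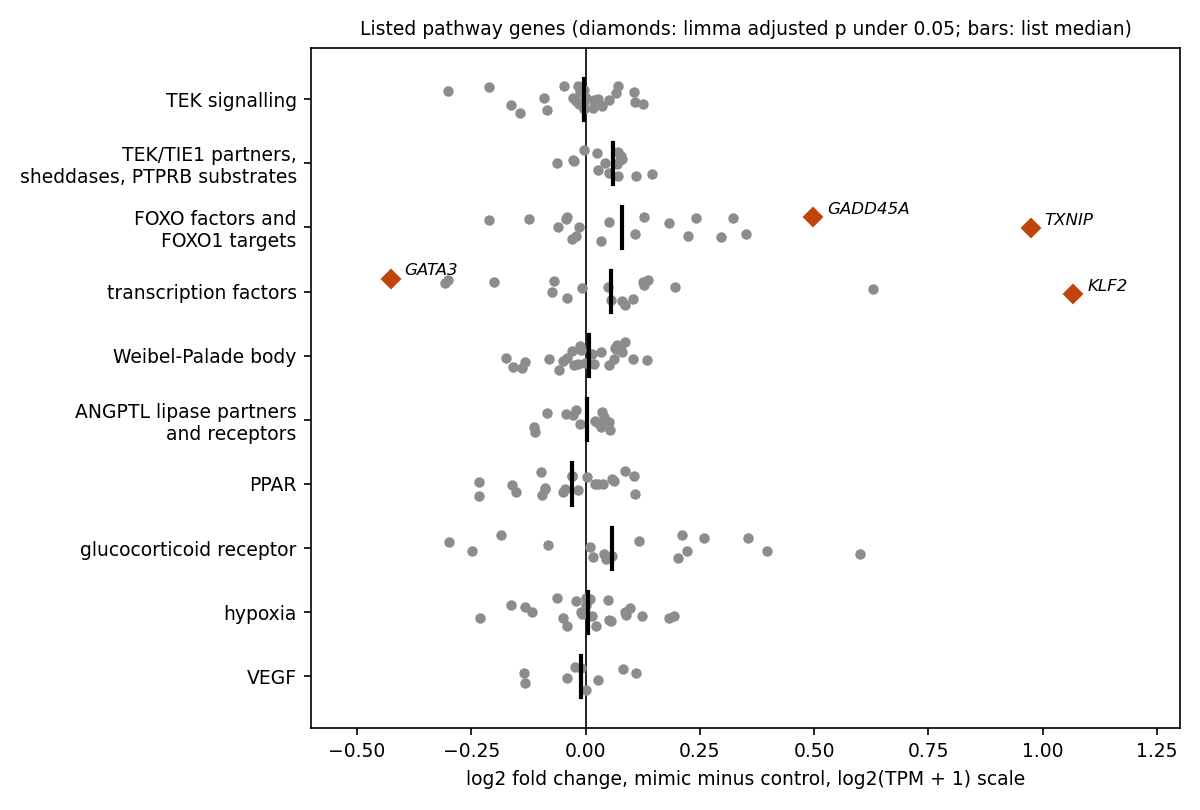
Log2 fold change on the log2(TPM + 1) scale, mimic minus control, of every tested gene of 10 pathway lists, with a bar at each list median. Diamonds mark the genes past the limma threshold, which are GADD45A and TXNIP in the FOXO list and GATA3 and KLF2 among the transcription factors.

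For the Weibel-Palade body, the storage granule of ANGPT2, 0 of 28 tested cargo and exocytosis genes passed. There were 0 higher and 2 lower genes with an unadjusted p under 0.05, against 3.05% and 7.64% of all tested genes. The median was 0.01. EDN1, the vasoconstrictor endothelin-1, averaged 959 ± 20.2 TPM in mimic and 1058 ± 72.4 TPM in control cells. STX3, a syntaxin whose exons share 335 bases with the olfactory receptor gene OR10V1 (listed at 0) and 172 with a pseudogene, averaged 24.7 ± 0.714 TPM in mimic and 27.9 ± 0.590 TPM in control cells (SD, n = 3 each). VWF, the main cargo, named after its values were seen, differed by 0.06 (log2, SE 0.06).

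Of 14 tested lipase partners and receptors of angiopoietin-like proteins, 0 passed and 0 had an unadjusted p under 0.05, with a median of 0.0041. Both named after their values were seen, LPL, the lipase that ANGPTL4 inhibits, stayed at or under 0.0595 TPM, and GPIHBP1, which anchors it on endothelium, differed by 0.03 (log2, SE 0.13). Of 22 tested PPAR receptors and targets 0 passed. Unadjusted p was under 0.05 for 0 higher and 2 lower genes, against 3.05% and 7.64% of all tested genes, and the median was -0.03. The 2 lower genes were PDK4, a mitochondrial kinase, and the receptor RXRB. PDK4 averaged 5.30 ± 0.672 TPM in mimic and 6.37 ± 0.165 TPM in control cells. RXRB averaged 39.0 ± 1.99 TPM in mimic and 43.4 ± 2.23 TPM in control cells (SD, n = 3 each). RXRB shares exon bases with SLC39A7 on the other strand.

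Of 17 tested genes, the glucocorticoid receptor and its targets, 0 passed. Unadjusted p was under 0.05 for 5 higher and 2 lower genes, against 3.05% and 7.64% of all tested genes, and the median was 0.06. The kinase gene SGK1 averaged 39.1 ± 3.42 TPM in mimic and 25.6 ± 4.02 TPM in control cells (SD, n = 3 each), a log2 difference of 0.60 (SE 0.11, limma adjusted p = 0.0766). The transcription factor gene KLF9 differed by 0.36 (SE 0.07, limma adjusted p = 0.0847). With a filter of 5 TPM, and again with protein-coding genes only, 2 genes of this list were called higher. Of 24 tested hypoxia-induced genes 0 passed, and the median was 0.01. Unadjusted p was under 0.05 for 0 higher genes and 1 lower gene, against 3.05% and 7.64% of all tested genes. The lower one, the hexokinase gene HK2, differed by -0.23 (log2, SE 0.09) and shares 7 exon bases with an antisense RNA gene. Of 9 VEGF ligands and receptors 0 passed and 0 had an unadjusted p under 0.05, with a median of -0.01.

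Likeness was ranked by Pearson r of log2(TPM + 1) over the 6 libraries, against 10550 genes with a mean of at least 5 TPM. ANGPTL4 was most like IER5L (r = 0.996) and BBC3 (0.993) and least like KIAA1671 (-0.997). PTPRB was most like FAM13B (0.999) and HERC4 (0.998) and least like TOX2 (-0.983), and ANGPT2 was most like AGPAT5 (0.998) and HIF1AN (0.995) and least like MARCHF2 (-0.995). TEK was closest to ZNF627 (0.993) and SCP2 (0.991) and farthest from KRT18 (-0.994). TIE1 was closest to MRTFA (0.997) and HOTAIRM1 (0.989) and farthest from BCL9 (-0.986), and ANGPTL2 to FBXL14 (0.994) and SH3TC1 (0.988) and from ANKRD36B (-0.981). With 6 points many genes reach a high r: of the 10550, 154 exceeded 0.9 with ANGPTL4 and 580 with PTPRB. They share libraries and total scaling, and no test was made.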

How the data were processed

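mRNA-enriched RNA of 6 libraries, from 3 mimic and 3 control samples, was sequenced as single reads, per the labels' protocols. The authors deposited 1 TPM value per gene and library, per the file headers. As genome builds, the submitters' processing notes list hg38 and GRCh38.p13. Which aligner, counter, annotation and strand setting they used is not given in the sources used here. Ensembl IDs were given symbols by table (45102 of 45372 matched), and positions and 3′ UTRs from GENCODE 29 on GRCh38. Depth was estimated from the TPM step of 1 read per exon length. In each library, 81.5% to 82.1% of low genes lay within 0.05 of whole reads. These estimates include PCR copies, and counting error covers sampling only.

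limma 3.58.1 in R 4.3.3 was fitted to log2(TPM + 1) with a trended prior and group as the only term, over genes that reached 1 TPM in 3 or more libraries. It was tested on simulated data. With 3 libraries against 3, an exact permutation test of a single gene cannot go below 0.1, so none is used. Alternatives were other pseudocounts, filters, scalings and priors, protein-coding genes only, a replicate term and each library left out. The 7 genes and the lists were chosen with earlier results of these data known. Named list genes were those past the threshold, or otherwise the 2 largest changes with an unadjusted p under 0.05 and at least 5 TPM, and a gene named outside this rule is marked. Python 3.11.15, numpy 2.4.6, pandas 2.3.3 and matplotlib 3.10.9 were used.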

Additional observations from a re-analysis of the deposited data

How the results depend on the processing

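Among the 7 genes, 0 were called in either direction in 16 of 17 alternative settings, and 1, ANGPTL4, was called lower with protein-coding genes only. ANGPT2, TEK, TIE1, PTPRB and ANGPTL4 kept their sign in every setting. ANGPTL2, close to 0, turned to 0.0102 with median-of-ratios scaling and 0.0153 with quantile normalization, and ranged from -0.0575 to 0.0162 when 1 library was left out. ANGPT1 ranged from -0.222 to 0.0506 when 1 library was left out and could not be fitted with a filter of 5 TPM. Over all genes, 18 higher and 41 lower calls dropped to 6 and 5 without the filter on low values and to 10 and 10 when the prior had no trend. They grew to 36 and 79 at a 5 TPM minimum, to 37 and 82 when the prior was robust, and to 54 and 122 over protein-coding genes. Higher calls were 33 with median-of-ratios scaling and 34 with quantile normalization. Without 1 library they ranged from 3 to 20 higher and from 5 to 27 lower. A replicate block gave 9 and 5. The replicate numbers showed no pairing of the samples, with a correlation of same-numbered deviations of 0.03, -0.09 and -0.11. Not every sample was closest to its own number. With 3 libraries per group, this check cannot exclude pairing. The block called 0 of the 7 genes. With the block, the limma adjusted p was 0.156 for GATA3 and 0.0762 for TXNIP, which were then not called. The causes were not tested. The transcript tagged as principal was chosen after the data were seen, and 3 of the 7 genes rather than 4 then held a 7- or 8-base seed match. At an estimated 65 to 120 reads, ANGPT1 had the least depth.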
